A study of Pomacea canaliculata with 34 samples.

Results

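A set of 142 genes of the apple snail Pomacea canaliculata, out of 21131 in the count table, was read at a trace level from the start of the series and was far more abundant once the animals had hatched. The members were chosen by measured values, namely levels in CPM (the count divided by the library's sum, times 1000000) averaged per stage. A member had more than 3 reads over the Stage 2 libraries, a mean under 5 CPM at Stage 2 and under 10 CPM at Stage 3. Its hatchling mean was at least 10 and under 500 CPM, at least 4 times the Stage 10 mean and over 0.5 of its highest stage mean. The low start, the rise from Stage 10 to the hatchling and the hatchling level therefore made the set. They are given below as descriptions, with no test.

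The study follows whole animals through embryonic development in a snail whose camera-type eye is used for work on regeneration. Groups were Stage 2 to Stage 7 with 3 libraries each, and Stage 8, Stage 9, Stage 10 and the hatchling with 4 each, all labelled as whole animal, with no treatment, genotype or age named. The groups share 1 preparation per the labels' protocols: embryos were freed from the egg, RNA was taken up in Trizol, and polyadenylated RNA was selected. The labels do not tell whether libraries of a stage came from different clutches, so a p-value weighs a difference against library-to-library spread alone, and that spread may be technical.

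Apple snails lay egg masses above the water line, and the embryo develops inside a shelled egg on the nutritive perivitelline fluid around it. There is no free-living larva: a small crawling snail leaves the egg, enters water and begins to feed with its own radula and gut. Hatching is thus the passage from a closed, provisioned egg to an animal that feeds, breathes and meets microbes. The genes here carry identifiers of the LOC type with no product names in the counts or in the reference table, so no member is given a function. CPM is not divided by transcript length, and so the order of genes by CPM is an order of reads.

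Total reads per library ran from 13392123 to 95942469, and the 3 deepest libraries belonged to Stage 10 and the hatchling. The 3 Stage 2 libraries together held 55988658 reads, in which a member had between 4 and 254 reads, with a median of 16. At this depth 52 of the 142 members had 10 reads or fewer at Stage 2, while 109 were read in each of the Stage 2 libraries. Levels under about 1 CPM therefore rest on few reads, and small differences among the early stages could not be resolved.

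From Stage 2 to Stage 7 the members stayed low. The median of the members' stage means was 0.277 CPM at Stage 2, 0.256 CPM at Stage 4, 0.362 CPM at Stage 6 and 0.489 CPM at Stage 7, and 81 members stayed under 1 CPM at each stage up to Stage 7. The median was 1.27 CPM at Stage 8 and 6.96 CPM at Stage 9. It was 6.79 CPM at Stage 10 and 51.1 CPM in the hatchling. The profile had 2 climbs, one reaching Stage 9 and one at hatching, with a level stretch from Stage 9 to Stage 10 between them. In whole-animal RNA, more cells of a type and more RNA per cell cannot be told apart.

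**Figure D1:**
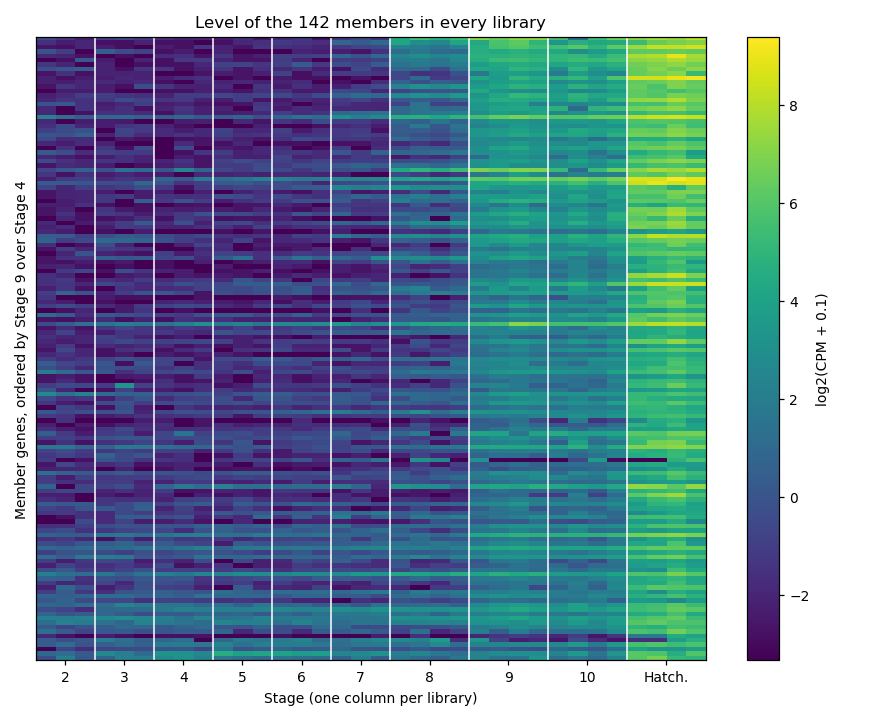
Level of each of the 142 members (rows, ordered by Stage 9 over Stage 4) in each of the 34 libraries (columns, by stage), as log2(CPM + 0.1). Most rows are dark to Stage 7, brighten at Stage 8 and Stage 9, and are brightest in the 4 hatchling columns.

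Added up within each library, the members took 85.7 ± 10.3 CPM at Stage 2 (SD, n = 3) and 160 ± 12.2 CPM at Stage 7 (n = 3). The sum was 415 ± 67.7 CPM at Stage 8, 1751 ± 327 CPM at Stage 9, 1595 ± 398 CPM at Stage 10 and 10616 ± 1972 CPM in the hatchling (n = 4 each). The Stage 9 libraries (1411 to 2180 CPM) and the Stage 10 libraries (1300 to 2144 CPM) overlapped over nearly their whole range. Each hatchling library (8538 to 13289 CPM) was above each library of the other stages. The mean sum at Stage 9 was 16.5% of that in the hatchling and that at Stage 10 was 15.0%, against 3.91% at Stage 8.

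**Figure D2:**
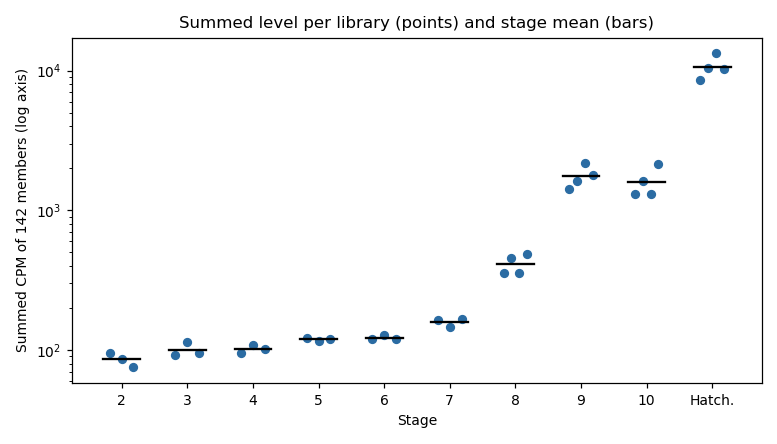
Summed CPM of the 142 members in each library (points) with the stage mean (bars), on a log axis. The sum lies under 170 CPM to Stage 7, between 355 and 487 CPM at Stage 8, between 1300 and 2180 CPM at Stages 9 and 10, and at 8538 CPM or more in the hatchling.

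The hatchling against Stage 10 is the contrast that chose the members. Their ratio of means ran from 4.02 to 60.0, with a median of 6.56, and 28 members reached 10 or more while 42 were under 5. For reference, edgeR's quasi-likelihood test called 16.9% of the 17441 tested genes higher in the hatchling than at Stage 10. Nothing is read from that share here, since the rule used this contrast. In 140 of the 142 members each hatchling library lay above each Stage 10 library. The rule's minimum of 4 times favours such a separation, and its share over all tested genes was not counted. In each of the 142 the hatchling mean was the highest of the series. The rule's bounds already placed it above Stage 10 and above the early stages with a CPM limit. For the stages between, the rule asked only that it be over 0.5 of the highest stage mean. The share of other genes with such a maximum was not counted, so this is a description.

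Hatchling levels were spread widely, with 28 members at 100 CPM or more and 23 under 20 CPM, and the 5 members of most reads held 18.6% of the members' summed hatchling mean. LOC112577121 had the highest hatchling mean, 492 ± 126 CPM (SD, n = 4), with libraries at 411, 399, 672 and 485 CPM. Its Stage 10 libraries stood at 80.4, 110, 75.8 and 109 CPM, its Stage 9 libraries at 72.9, 68.4, 97.3 and 103 CPM and its Stage 8 libraries at 15.5, 21.7, 16.4 and 22.1 CPM. Stage 9 and Stage 10 overlapped, whereas Stage 8 lay below both and the hatchling above both. It was also above its Stage 2 and Stage 3 levels (0.420 CPM or less) well before that, with 1.67, 1.09 and 3.83 CPM in the Stage 4 libraries and 5.57, 5.44 and 5.85 CPM at Stage 7.

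LOC112557954 followed with 362, 355, 494 and 581 CPM in the hatchling libraries. It had 24.7, 34.8, 15.2 and 59.8 CPM at Stage 10 and 18.2, 11.6, 33.0 and 21.9 CPM at Stage 9. At Stage 7 it was read in 1 of 3 libraries, at 0.0598 CPM. Its profile was that of a gene read at a trace until Stage 8, where 3 libraries were at 0.332 to 0.560 CPM and replicate 2 at 1.94 CPM. LOC112566137 reached 327, 481, 362 and 474 CPM in the hatchling. It stayed between 0.143 and 1.73 CPM in each library from Stage 2 to Stage 8, and stood at 18.6, 21.9, 27.1 and 22.5 CPM at Stage 9.

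LOC112564880 had 266, 346, 396 and 307 CPM in the hatchling libraries, close to 4 times its Stage 10 level of 62.8, 66.5, 85.6 and 95.2 CPM. In the hatchling LOC112558223 read 180.5, 343, 315 and 349 CPM. LOC112576062 read 183, 314, 296 and 376 CPM. In these 2 genes replicate 1 was the lowest hatchling library, and it still lay above the highest Stage 10 library (60.9 and 75.5 CPM).

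The largest ratios belonged to genes that were still low at Stage 10. LOC112570672 had Stage 10 libraries of 0.383, 4.46, 0.444 and 2.08 CPM and hatchling libraries of 70.3, 127, 192 and 52.8 CPM. Its ratio of means was 60.0, and both groups varied several-fold within themselves without overlapping. Without Stage 10 replicate 2 the ratio was 114. LOC112557630 went from 2.23, 5.61, 2.62 and 6.20 CPM at Stage 10 to 156, 214, 323 and 119 CPM in the hatchling, a ratio of 48.7. LOC112577403 (ratio 21.1) and LOC112557394 (19.9) had hatchling means of 51.5 ± 25.6 and 27.6 ± 10.9 CPM (n = 4). For LOC112574799 (ratio 49.8) the hatchling libraries split into 3.15 and 3.53 CPM for replicates 1 and 2 and 22.6 and 16.8 CPM for replicates 3 and 4. A ratio of 41.2, the fourth in size, belonged to LOC112568902, described below, whose hatchling libraries overlap those of Stage 10. It was 89.5 without Stage 10 replicate 2 and 18.6 without hatchling replicate 4, so its rank rests on single libraries.

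**Figure D3:**
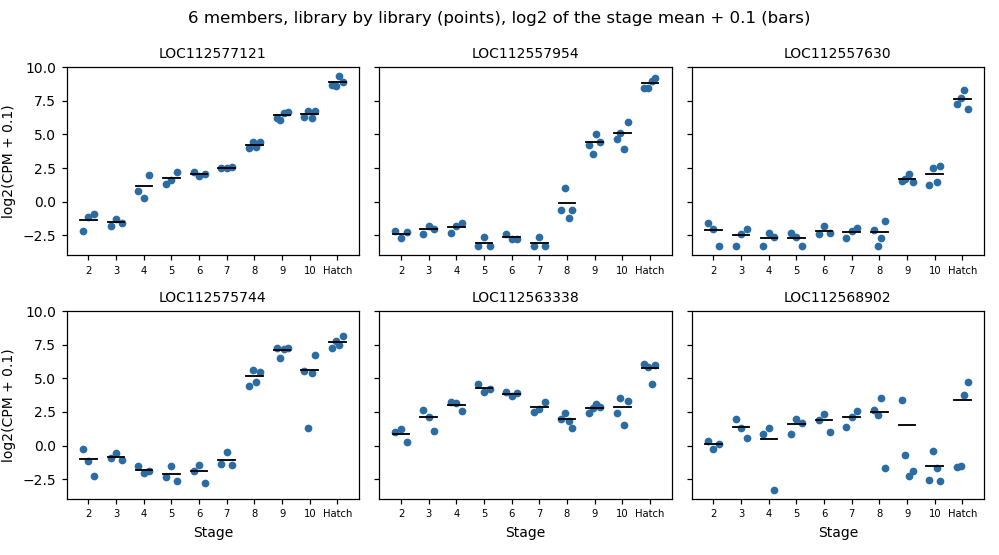
Level of 6 members in each library (points) as log2(CPM + 0.1), with bars at the log2 of the stage mean plus 0.1. LOC112577121 is higher from Stage 4 on, LOC112557954 and LOC112557630 are higher at Stage 9 and again in the hatchling, LOC112575744 dips at Stage 10, LOC112563338 has an earlier maximum at Stage 5, and LOC112568902 is scattered within stages from Stage 8 on.

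Whether the members had moved before hatching was tested on stages that the rule does not compare. Stage 4 and Stage 9 enter it only through the cap that keeps any stage under 2 times the hatchling mean. Between Stage 4 and Stage 9, 134 of the 142 members (94.4%) rose and none was called lower, by edgeR's quasi-likelihood test with Benjamini-Hochberg adjustment over 17441 genes (adjusted p under 0.05). Of all tested genes, 43.8% were called higher and 35% lower. Each of the 134 rises was of 2-fold or more. The median log2 fold change was 4.16 over the members, with quartiles of 2.91 and 5.77, and 0.21 over all tested genes. No member was called lower by DESeq2 or limma-voom either, and none had an unadjusted edgeR p under 0.05 in that direction. At Stage 4, however, 25 members reached 1 CPM and the members' median was 5.17 reads per library. A fall from so low a level could hardly be called, so the absence of falls says little. The bounds on Stage 2 and Stage 3 favour a low Stage 4 in the members, which leaves room mainly for rises. The tested genes were not held to a low start. Their shares, here and at the steps below, are thus a background and not a matched comparison. Another scaling moved both medians: they were 4.32 and 0.37 with RLE factors, 4.35 and 0.38 with DESeq2 and 4.40 and 0.46 with library totals. Without replicate 4 of Stage 9, 1 member (LOC112563341, below) was called lower.

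The 4 largest rises from Stage 4 to Stage 9, among members with 10 or more reads at Stage 4, were those of LOC112575744, LOC112563261, LOC112563953 and LOC112557954. LOC112575744 had 0.239, 0.142 and 0.171 CPM in the Stage 4 libraries and 155.7, 89.7, 144 and 149.7 CPM in those of Stage 9, a difference of 9.23 on the log2 scale (SE 0.95, adjusted p = 7.98e-10 by edgeR). LOC112563261 had 0.191, 0.236 and 0.0571 CPM at Stage 4. Its Stage 9 libraries were close together, with 28.4, 28.1, 31.4 and 28.2 CPM, and it rose by 7.15 on the log2 scale (SE 0.422, adjusted p = 4.6e-15 by edgeR). LOC112563953 had 0.0478, 0.331 and 0.343 CPM at Stage 4 and 23.8, 39.9, 42.8 and 33.1 CPM at Stage 9, and rose by 6.94 on the log2 scale (SE 0.496, adjusted p = 3.32e-13 by edgeR). LOC112557954 rose by 6.71 on the log2 scale (SE 0.628, edgeR adjusted p = 1.14e-10). In each of the 4 the libraries of the stages compared were far apart, and each call was kept in the 14 alternatives tried.

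The steps between neighbouring stages placed this rise late. From Stage 4 to Stage 5, 4 members were called higher and 1 lower (2.82% and 0.704%), where 12% of tested genes were higher and 10.7% lower. From Stage 5 to Stage 6 edgeR called no member in either direction, against 3.1% of tested genes higher and 0.321% lower. At an unadjusted p under 0.05, 3 members were higher and 1 lower, and DESeq2 and limma-voom called none. From Stage 6 to Stage 7, 13 members were higher and 2 lower (9.15% and 1.41%), where 16.4% and 14.1% of tested genes were. The member shares at these 3 steps were below those of the tested genes, at levels where few reads limit what can be called. Without replicate 2 of Stage 6 the 13 became 7, and with limma-voom 1. The Stage 5 rises became 1 without replicate 1 of either stage and 2 without Stage 4 replicate 2 or 3 or Stage 5 replicate 3, and the single fall was lost without any 1 Stage 4 library or Stage 5 replicate 1. The Stage 7 falls became 0 without Stage 6 replicate 3 and 1 without any other library of either stage. Of all calls, 52.8% were higher at Stage 5 and 53.8% at Stage 7, and scaling by library totals made these shares 78.7% and 66.1%.

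From Stage 7 to Stage 8, 69 members (48.6%) rose and 4 (2.82%) were called lower, against 22.9% and 23.2% of tested genes (edgeR, adjusted p under 0.05). The members' median log2 fold change was 1.10 with quartiles of 0.51 and 2.01. With limma-voom the count of rises was 24. The falls became 2 without Stage 7 replicate 2 or Stage 8 replicate 3, and 1 without Stage 7 replicate 3 or Stage 8 replicate 4. Of all calls at this step 49.7% were higher, 62.8% with RLE factors and 63.4% with DESeq2, which moved the median of all tested genes from 0.03 to 0.14. This step is also where the number of libraries goes from 3 to 4 and their depth becomes more uneven, and the part of either in these counts cannot be told apart from stage.

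From Stage 8 to Stage 9, 126 members (88.7%) rose and none was called lower, where 12.4% of tested genes were higher and 10.2% lower (edgeR, adjusted p under 0.05). The members' median log2 fold change was 2.33 (quartiles 1.74 and 3.35), against 0.00 for all tested genes. No member was lower at an unadjusted p under 0.05, with DESeq2 or with limma-voom, and 1 was called lower without Stage 9 replicate 1. In 121 members each Stage 9 library lay above each Stage 8 library. Both steps were called in 65 members, Stage 9 without Stage 8 in 61, Stage 8 without Stage 9 in 4 and neither in 12. The shares of all tested genes with such a separation or such patterns of calls were not counted.

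**Figure D4:**
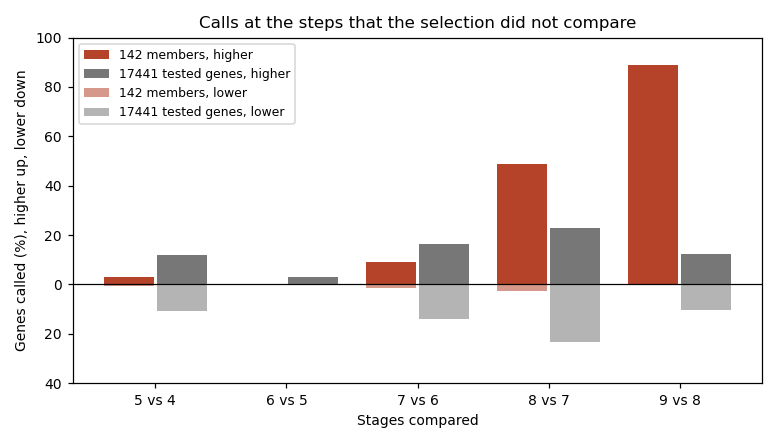
Share of the 142 members and of the 17441 tested genes called higher (upward bars) or lower (downward bars) by edgeR at adjusted p under 0.05, at each step from Stage 4 to Stage 9. Member bars are shorter than those of the tested genes up to Stage 7 and reach 48.6% and 88.7% upward at the last 2 steps.

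The Stage 9 step was called in several of the most abundant members. LOC112566137 went from 0.758, 0.747, 0.720 and 1.08 CPM at Stage 8 to 22.5 ± 3.502 CPM at Stage 9 (SD, n = 4), a rise of 4.70 on the log2 scale (SE 0.302, adjusted p = 1.48e-11 by edgeR). LOC112557954 rose by 4.92 on the log2 scale (SE 0.426, edgeR adjusted p = 2.52e-09). This gene was already called higher at Stage 8, where each library lay above those of Stage 7 (edgeR adjusted p = 0.015). That call rests on 1 read over the Stage 7 libraries, so no fold is given, and it was lost with limma-voom (adjusted p = 0.197) and without Stage 7 replicate 1 (0.0547) or 3 (0.0572). LOC112566137, LOC112557630 and LOC112558223 were not called at that earlier step (edgeR adjusted p = 0.643, 0.765 and 0.303). LOC112557630 had Stage 8 libraries of 0.126, 0, 0.0554 and 0.270 CPM and Stage 9 libraries of 2.86, 3.09, 4.11 and 2.68 CPM (log2 fold change 4.28, edgeR adjusted p = 9.78e-07), and the fold change was 5.40 without Stage 8 replicate 4. LOC112558223 went from 0.842, 1.05, 0.831 and 1.10 CPM to 12.9, 8.76, 18.3 and 14.4 CPM (log2 fold change 3.84, edgeR adjusted p = 3.94e-08). In these 4 genes the Stage 9 libraries all lay above those of Stage 8, and the hatchling libraries above both. The Stage 9 rise of LOC112570672 (log2 fold change 4.18, edgeR adjusted p = 0.00292) was not called with limma-voom, at an adjusted p of 0.156. The fold change of this gene was 5.09 without Stage 8 replicate 4. Its 4 Stage 9 libraries stood at 1.67, 1.66, 2.04 and 0.341 CPM.

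From Stage 9 to Stage 10 the members' means moved little, a step described without a test because the rule bounds the Stage 10 mean. The median ratio of means was 1.05, with 80 members higher and 62 lower at Stage 10. Ratios of 2 or more were found in 3 members and of 0.5 or less in 5. Below the hatchling, the next highest stage mean was at Stage 10 in 78 members, at Stage 9 in 59 and earlier in 5.

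A handful of members broke the pattern by dipping at Stage 10. LOC112575744 had 155.7, 89.7, 144 and 149.7 CPM at Stage 9, 45.8, 2.39, 42.8 and 104 CPM at Stage 10 and 154, 226, 175 and 288.5 CPM in the hatchling. LOC112576329 ran beside it library by library, with 121, 88.3, 130.0 and 125 CPM at Stage 9, 37.9, 2.00, 35.95 and 91.8 CPM at Stage 10 and 137, 215, 171 and 250.2 CPM in the hatchling. In both genes replicate 2 was by far the lowest Stage 10 library, and the lowest hatchling library was near the highest of Stage 9. Without that Stage 10 library the hatchling ratio was 3.28 for LOC112575744 (4.32 with it) and 3.50 for LOC112576329 (4.61), both under the 4 that the rule asks. Without Stage 10 replicate 4 the ratios were 6.96 and 7.64, and without hatchling replicate 4 that of LOC112575744 was 3.79. Both had risen at Stage 8, by 6.51 (SE 0.887, edgeR adjusted p = 9.19e-07) and 5.45 (SE 0.869, edgeR adjusted p = 9.64e-06) on the log2 scale, calls that limma-voom did not make (adjusted p = 0.0922 and 0.0913). LOC112560433 had 20.8, 54.05, 72.7 and 31.5 CPM in the Stage 9 libraries, then 10.1, 25.4, 19.9 and 20.7 CPM in those of Stage 10. For LOC112563123 the values were 7.08, 14.5, 19.1 and 14.6 CPM, then 7.68, 3.93, 3.15 and 8.15 CPM. In each of the 4 genes some library of Stage 10 reached into the range of Stage 9, so the dip was not clear of the spread between libraries. These 4 genes were also the members with a Stage 9 mean at or above 0.5 of the hatchling mean. They were singled out after their values were seen.

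Of the 8 members without a call between Stage 4 and Stage 9, 3 belong to a group of 4 members that lie within 5 genes of each other in the reference gene order, LOC112563337, LOC112563339, LOC112563341 and LOC112563338, a group singled out after its values were seen. LOC112563338 had 9.37, 8.80 and 5.94 CPM at Stage 4, 24.4, 15.7 and 18.4 CPM at Stage 5 and 15.8, 12.98 and 14.6 CPM at Stage 6. Later libraries had 3.92, 5.38, 3.49 and 2.41 CPM at Stage 8, 5.13, 11.5, 2.83 and 9.81 CPM at Stage 10 and 67.7, 58.9, 24.0 and 62.3 CPM in the hatchling. Its level thus formed a low hump around Stage 5 ahead of a larger hatchling level. edgeR called the steps of this gene from Stage 4 to Stage 5 (log2 fold change 1.14, adjusted p = 0.0456), from Stage 6 to Stage 7 (-1.11, adjusted p = 0.0438) and from Stage 7 to Stage 8 (-0.98, adjusted p = 0.0497). Over the alternatives the adjusted p reached 0.187, 0.207 and 0.224, and these calls were lost in 7 of 13, 8 of 13 and 10 of 14 alternatives.

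LOC112563341 had its highest stage mean before the hatchling at Stage 4, with 6.41, 8.94 and 4.57 CPM. Its Stage 9 libraries had 4.89, 2.86, 2.87 and 9.68 CPM, the last above each Stage 4 library, so the order holds for means alone. It read 65.8, 112, 35.1 and 31.9 CPM in the hatchling. LOC112563339 kept to 2.26 to 6.495 CPM in the libraries from Stage 5 to Stage 9, and LOC112563337 to 2.10 to 11.5 CPM. Between Stage 4 and Stage 9 the log2 fold changes were -0.47 for LOC112563338 (edgeR adjusted p = 0.265), -0.63 for LOC112563341 (0.268) and 0.48 for LOC112563339 (0.203). Without replicate 4 of Stage 9, the fold change of LOC112563341 was -1.20 with an adjusted p of 0.0456. LOC112563337 rose by 1.47 on the log2 scale (SE 0.304, edgeR adjusted p = 8.59e-05). In the hatchling the group lay at 63.7 ± 9.51 CPM for LOC112563337 and 53.2 ± 19.8 CPM for LOC112563338 (n = 4).

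The label of genes induced at hatching did not hold in every library for LOC112568902 and LOC112567729. LOC112568902 had 0.229 and 0.239 CPM in hatchling replicates 1 and 2, and 13.3 and 26.8 CPM in replicates 3 and 4. Its Stage 9 libraries split likewise into 10.4 CPM in replicate 1 and 0.104 to 0.515 CPM in the other three, and at Stage 8 replicate 4 was at 0.212 CPM where the rest had 4.70 to 11.6 CPM. LOC112567729 had 0 reads in hatchling replicates 1 and 2 and 28.3 and 54.2 CPM in replicates 3 and 4. At Stage 9 it was read in replicate 1 alone, at 8.87 CPM, and at Stage 10 mainly in replicate 3, at 12.6 CPM. A count of 0 in a library allows up to 3 reads there. The 2 genes were thus high in the same Stage 9 and hatchling libraries. They differed at Stage 8 replicate 1, with 6.02 CPM for LOC112568902 and 0 reads for LOC112567729. They also differed at Stage 10 replicate 3, with 0.210 CPM for LOC112568902. Their hatchling means, 10.1 ± 12.7 and 20.6 ± 26.0 CPM (n = 4), were smaller than their SDs. For LOC112567729 the ratio to Stage 10, 6.22, was 97.9 without Stage 10 replicate 3 and 2.85 without hatchling replicate 4. Without that hatchling library the hatchling means of LOC112568902 and LOC112567729 were 4.58 and 9.44 CPM, under the rule's 10. They were the 2 members whose hatchling and Stage 10 libraries overlapped.

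Within a stage the members tended to be high in the same library. Hatchling replicate 3 held the highest of the 4 hatchling values for 105 members (73.9%), against 32.4% of the tested genes. Stage 10 replicate 4 did so for 97 members (68.3%, against 28.9%) and Stage 9 replicate 3 for 95 (66.9%, against 20.2%). At Stage 2 to Stage 7 no library led for more than 40.1% of the members. The median member was 1.47 times the mean of the other hatchling libraries in replicate 3, and the median tested gene 1.01 times. The corresponding factors were 1.44 and 1.01 for Stage 10 replicate 4 and 1.37 and 0.975 for Stage 9 replicate 3. Hatchling replicate 3 held 37848728 reads, and the deepest hatchling library, with 95942469 reads, had the lowest summed level. Stage 10 replicate 4 held 81315202 reads, where replicate 1 held 88674538. Stage 9 replicate 3 held 28947235 reads, where replicate 4 held 41110722. At Stage 8 the deepest library, replicate 4 with 51823625 reads, led for 49.3% of the members, against 26.7% of the tested genes. The cause of these differences was not tested. Members, unlike the tested genes, were chosen by hatchling and Stage 10 means, so their shares there are not independent of the rule.

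**Figure D5:**
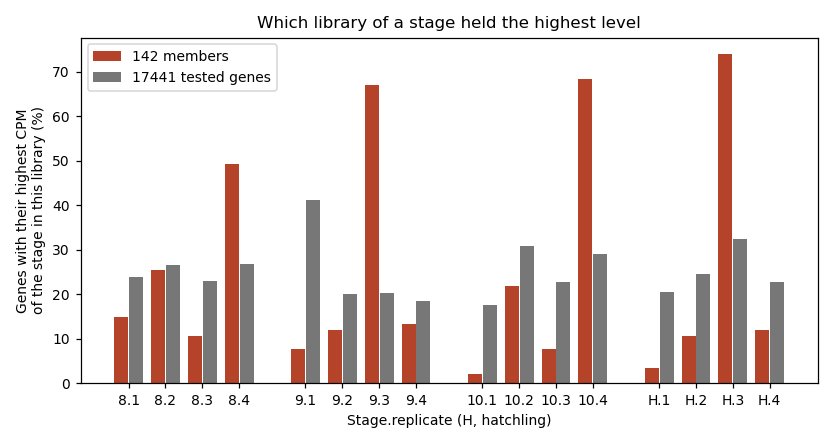
For each library of Stage 8, Stage 9, Stage 10 and the hatchling (H), the share of the 142 members and of the 17441 tested genes whose highest CPM of that stage fell in it. One library per stage holds 49.3%, 66.9%, 68.3% and 73.9% of the members, and no library holds more than 41.2% of the tested genes.

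The spread among hatchling libraries was accordingly wide. The SD was a median 0.282 of the mean over the members, from 0.0664 to 1.26, and a median 0.0907 over the 11014 tested genes with a hatchling mean from 10 to under 500 CPM. The widest spreads were those of LOC112567729 and LOC112568902, followed by LOC112561321 with 8.82, 6.82, 44.0 and 20.8 CPM, whose ratio to Stage 10 of 6.76 was 4.08 without replicate 3. Leaving out single libraries was tried on the ratios to Stage 10 and to Stage 8 after seeing the data. Without hatchling replicate 3 the members' median ratio to Stage 10 was 5.84 in place of 6.56, and 120 of the 142 still reached a ratio of 4. Without Stage 10 replicate 4 it was 7.20. Without Stage 9 replicate 3 the members' median ratio of Stage 9 to Stage 8 was 4.40 in place of 4.89.

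The members with the highest Stage 2 means were LOC112557990, LOC112561449 and LOC112563337, and they did not share a course. LOC112557990 had Stage 2 libraries of 6.65, 2.47 and 4.78 CPM and Stage 4 libraries of 0.621, 0.757 and 0.971 CPM. It was back at 6.09, 11.5, 15.0 and 8.64 CPM at Stage 9 and read 34.9, 39.4, 55.6 and 45.5 CPM in the hatchling. Its Stage 2 and Stage 4 libraries did not overlap, a difference that was not tested. LOC112561449 ranged from 2.55 to 7.31 CPM over the libraries from Stage 2 to Stage 7. Its stage means were 6.23 CPM at Stage 3 and 3.01 CPM at Stage 7. They were 8.61 CPM at Stage 8, 13.5 CPM at Stage 9 and 12.1 CPM at Stage 10. The hatchling libraries read 50.6, 64.5, 79.5 and 41.1 CPM.

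A further 226 genes met the same rule but for the first condition, having 3 or fewer reads over the Stage 2 libraries. Their course from Stage 8 on ran beside that of the members at a lower start. The median of their stage means was 0.554 CPM at Stage 8 (members 1.27), 4.83 CPM at Stage 9 (6.96), 5.10 CPM at Stage 10 (6.79) and 41.6 CPM in the hatchling (51.1). The median ratio of Stage 9 to Stage 8 was 9.66 in these genes and 4.89 in the members, that of Stage 10 to Stage 9 was 1.07 and 1.05, and that of the hatchling to Stage 10 was 7.13 and 6.56. The flat stretch between Stage 9 and Stage 10 was present in both sets. Both were chosen with the same bounds on Stage 10 and the hatchling, so their likeness at these stages is not independent of the rule. Differences between the sets were not tested.

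Part of the members lay next to each other. In the gene order of the RefSeq annotation of assembly ASM307304v1, 26 members (18.3%) had a member as a direct neighbour, in 12 runs, where 1.29% of all 21131 genes had one. Within 5 genes on either side the shares were 31.7% and 5.66%. These shares describe the order and were not tested. The build used for the counts is not given in the sources used here, so no coordinates are printed. Neighbours that are near-identical copies may share reads, which these data do not resolve, and their levels are uncertain to that extent.

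The longest runs had 3 members each. In the first, LOC112557172 had 42.2, 50.9, 69.2 and 21.6 CPM in the hatchling libraries and LOC112557171 had 82.6, 108, 141 and 39.4 CPM. The libraries stood in the same order in both, with replicate 3 highest and replicate 4 lowest. The third gene of the run, LOC112558223, had its highest level in replicate 4 and its lowest in replicate 1, so the run did not move as 1 unit. In the second run LOC112559275 had 44.7, 45.2, 34.6 and 34.8 CPM, LOC112559582 had 18.8, 22.3, 12.8 and 11.9 CPM and LOC112559277 had 31.7, 33.9, 26.7 and 19.2 CPM. In all 3 genes of that run replicate 2 was the highest hatchling library and replicates 3 and 4 the lowest, unlike most members.

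At the edge of the rule, the member nearest to the hatchling minimum of 10 CPM was LOC112568902 at 10.1 CPM, and the nearest gene outside it was LOC112567314 at 8.14 CPM. For the 4-fold minimum over Stage 10, LOC112566491 was just inside with a ratio of 4.02 and LOC112554681 just outside with 3.996. LOC112566491 stood at 9.44, 12.6, 18.9 and 9.64 CPM in the hatchling and 2.91, 2.89, 2.57 and 4.23 CPM at Stage 10.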

How the data were processed

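The authors deposited raw counts as whole numbers in 1 table, genes by libraries. The submitters' processing notes list STAR. Which version was run, how reads were counted, on which build, and how strand and multiply mapped reads were handled is not given in the sources used here. Stage and replicate come from the sample titles. Members and lists were chosen with earlier results of these data known.

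Levels are CPM on column sums. Tests used edgeR 4.0.16 (quasi-likelihood) in R 4.3.3 on the counts of all 34 libraries, with TMM scaling, 1 coefficient per stage and filterByExpr (minimum count 10). This kept 17441 genes and all 142 members, of which 141 also passed without the hatchling libraries. Benjamini-Hochberg adjustment was over all genes tested in a comparison. DESeq2 1.42.0 and limma-voom (limma 3.58.1) were alternatives.

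Genes were named by rule: the 6 of highest hatchling CPM, the 6 of largest ratio to Stage 10, the 4 largest rises between Stage 4 and Stage 9 (no fall was called), those at the thresholds, the longest runs of neighbours, the 3 highest at Stage 2 and the 3 of widest hatchling spread. Others are marked as chosen after their values were seen. All 21131 identifiers matched the reference table. Sequences and product names were not used here.

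Libraries with the same replicate number did not deviate together as a rule (correlations of deviations from -0.194 to 0.334 over 19 pairs). The highest value was that of replicate 2 of Stage 5 and Stage 6. The main fit has no block, and a replicate block was tried as an alternative.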

Additional observations from a re-analysis of the deposited data

Results flagged for a closer look

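Over 108 groups of 4 libraries (the named members and the members' sum at Stage 8, Stage 9, Stage 10 and in the hatchling), 13 held a library set apart from the other three by Dixon's criterion. Chance flags about 1 group in 20 where values are normal and groups independent. Here 3 members were named for their wide hatchling spread and some groups hold few reads, so the count of flags is not set against that rate. In LOC112568902 and LOC112567729 Stage 9 replicate 1 stood at 10.4 and 8.87 CPM, where the others had at most 0.515 CPM and 0 reads, and Stage 10 replicate 3 of LOC112567729 stood at 12.6 CPM, where the others had at most 0.607 CPM.

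In the hatchling, replicate 3 was apart at 481 CPM for LOC112563261 (others 209 to 245 CPM) and at 89.5 CPM for LOC112577403 (35.6 to 43.1 CPM). Stage 10 replicate 4 was apart at 8.37 CPM for LOC112559275 (4.50 to 4.94 CPM) and at 2.25 CPM for LOC112557394 (1.03 to 1.21 CPM). At Stage 9, replicate 3 of LOC112563261 was at 31.4 CPM (28.1 to 28.4 CPM) and replicate 4 of LOC112561321 was low at 1.97 CPM (2.86 to 3.03 CPM).

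At Stage 8, replicate 2 was apart at 1.94 CPM for LOC112557954 (0.332 to 0.560 CPM), at 0.747 CPM for LOC112557394 (0.126 to 0.212 CPM) and at 0.224 CPM for LOC112574799 (0 reads in the others). Replicate 4 was apart at 1.08 CPM for LOC112566137 (0.720 to 0.758 CPM).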

How the results depend on the processing

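The count of members called higher between Stage 4 and Stage 9 ran from 129 to 135 over the scalings, the filter, the tools, the fit of the 2 stages alone and the replicate block (134 with it), and from 133 to 134 without 1 library. That between Stage 8 and Stage 9 ran from 108 (limma-voom) to 130 (DESeq2), and from 116 to 126 without 1 library. In each of these comparisons 0 or 1 member was called lower without 1 library. From Stage 4 to Stage 5 the rises were 4, with 2 in the fit of the 2 stages alone, 0 with limma-voom and 1 to 4 without 1 library. The falls at that step were 1, with 0 with library totals, without the low-count filter or with limma-voom, 4 with DESeq2, 2 with the replicate block and 0 to 1 without 1 library. From Stage 6 to Stage 7 the rises were 13, with 1 with limma-voom and 7 to 10 without 1 library, and the falls 2, with 1 with RLE scaling or library totals, 0 with limma-voom and 0 to 1 without 1 library. From Stage 7 to Stage 8 the rises were 69, with 24 with limma-voom and 52 to 65 without 1 library, and the falls 4, with 2 in the fit of the 2 stages or DESeq2, 0 with limma-voom and 1 to 3 without 1 library. For LOC112557630 from Stage 7 to Stage 8, not called, the log2 fold change of 0.49 turned to -0.14 with limma-voom and -0.65 without Stage 8 replicate 4, with -0.65 to 0.84 over the fits without 1 library. The cause of these shifts was not tested; a fit without 1 library has fewer samples. The replicate block moved no other count by over 1.5 times. The number of genes that meet the rule ran from 100 (a 5-fold minimum) to 206 (a 3-fold minimum), and from 119 to 157 without 1 library, with at least 117 of the 142 kept. On TMM-scaled CPM 142 genes met it, of which 138 were members. The similarity of members in protein sequence was not run.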

Other observations

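Beside LOC112567729 and LOC112568902, 2 tested genes outside the set met the same condition on libraries, with Stage 9 replicate 1 over 10 times the other Stage 9 libraries and hatchling replicates 3 and 4 over 10 times replicates 1 and 2. LOC112569380 had 0 reads in each library from Stage 2 to Stage 7. It stood at 0.318 CPM in Stage 9 replicate 1, 0.911 CPM in Stage 10 replicate 3, and 3.65 and 8.12 CPM in hatchling replicates 3 and 4, the libraries in which LOC112567729 was also read. LOC112559807 met the condition at no more than 0.199 CPM in those libraries and had 1.72 to 2.45 CPM in the Stage 8 libraries. The condition was set after the values of these genes were seen.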
